A study of Arabidopsis thaliana with 18 samples.

Results

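The loci described are 74 gene-annotated loci in the transposon-rich stretch around the centromere of Arabidopsis thaliana chromosome 2. They were chosen by locus number and level: of the 1000 annotated loci numbered AT2G05110 to AT2G14999, without the run of locus numbers that stands for the large mitochondrial DNA insertion and without 1 MIRNA locus, 74 reached a mean of at least 5 RPM (reads of 22 nt per 1e6 reads of the library) in at least 1 of 6 groups of seedlings. Reads of any kind fell on 883 of the 1000 loci, and 1076 of the 32420 loci of the whole table reached the same level. Because the values of all 6 groups chose the loci, their levels and the counts of calls over all 74 are a description. Comparisons that the choice did not use are those over loci that reach 5 RPM in a group outside the 2 compared.

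The study sequenced small RNAs of whole seedlings, 14 days old, of 3 genotypes on 2 media, with 3 biological replicates in each of the 6 groups. The groups were dcl4-2 dcl2-1 on MS medium with 1 µM abscisic acid (ABA, a stress hormone), dcl4-2 dcl2-1 on MS medium alone, dcl4-2 on ABA, dcl4-2 on MS, wild-type Col-0 on ABA and Col-0 on MS. Both mutants carry the DCL4 allele dcl4-2, so the double mutant differs from the single mutant by the DCL2 allele dcl2-1. The medium and age are those given sample by sample, while a separate growth note in the labels describes older, soil-grown aerial parts with no treatment. The deposited table holds group means, and the reads of the 18 libraries were solved from them, so libraries carry the letters A, B and C in order of falling depth and no replicate number. The totals against which reads were scaled, as the worth of 1 read shows them, lay between 0.0953 and 2.19 M reads (M, 1e6 reads), except in dcl4-2 ABA libraries A and B with 12.7 and 10.02 M reads. The sources used here do not say which reads these totals count, and some were not whole numbers, so they stand for depth only approximately. Over the whole table the deposited group means added up to 290702 RPM in dcl4-2 on ABA and to between 12367 and 25977 RPM in the other 5 groups, and the part of this in the values of single loci was not tested. A table of 22-nt reads holds no messenger RNA levels, and reads on DCL2 and DCL4 averaged at most 0.364 and 0.145 RPM in any group, so neither the tissue nor the genotypes could be checked against it.

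Dicer-like enzymes cut double-stranded RNA into small RNAs of set lengths. In Arabidopsis, DCL2 makes siRNAs of 22 nt, DCL4 makes shorter ones that act on messenger RNAs, and DCL3 makes longer ones that guide DNA methylation to transposons. Pericentromeric transposons are normally kept silent by DNA methylation and repressive histone marks, and ABA is a hormone of drought and salt stress.

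Of the 74 loci, 60 are annotated as pseudogenes, 3 as transcribed pseudogenes and 11 as protein-coding genes in the RefSeq annotation of TAIR10.1. That annotation names no transposon family for the pseudogenes. The loci lay between positions 1828028 and 6480183 of chromosome 2, a span of 4.65 Mb, with a median gap of 24979 bp between neighbours and with 21 of the 73 gaps under 10 kb. Their median length was 3962 bp, against 1691 bp for the 911 other loci of the region with a sequence. Their median GC content was 45.4%, against 39.8% in the other loci. A median of 49.4% of the 22-base words in a member occurred more than once in the genome, inside the locus or elsewhere, against 18.4% in the other loci. The range was wide: 14 members had under 10% of their words repeated and 9 had over 90%. A longer locus collects more reads, so length was in part chosen together with level, and the 3 differences are given as descriptions.

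A repeat inside a locus, of at least 100 bases at 80% identity or more, was present in direct orientation in 6 of the 74 members and in 37 of the 911 other loci. An inverted repeat, which can fold into double-stranded RNA, was present in 0 members and in 1 other locus. The member with the highest level, the pseudogene AT2G09187 (chr2:3639603-3646073, minus strand), holds a direct repeat of 382 bp at 84.3% identity. The same 80 bases of both copies are shown as an example of a stretch where they are closer to each other than over the whole repeat. They lie on the minus strand of TAIR10.1 at chr2:3645985-3646064 for the upstream copy and at chr2:3645615-3645694 for the downstream copy, and capitals mark the 4 bases that differ.
AT2G09187 upstream copy: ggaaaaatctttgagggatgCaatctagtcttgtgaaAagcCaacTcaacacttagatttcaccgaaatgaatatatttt
AT2G09187 downstream copy: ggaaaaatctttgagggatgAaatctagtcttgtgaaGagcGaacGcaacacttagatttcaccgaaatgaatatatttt

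Members also share sequence with each other. At least 1 word of 22 bases was common to 187 pairs of members, which involved 46 of the 74. The pseudogenes AT2G06470, AT2G07660 and AT2G10780 form the most closely linked group by number of shared words: AT2G06470 and AT2G10780 had 3385 words in common. The first 100 of 169 consecutive bases identical in all 3 are shown because a 22-nt read from this stretch could have come from any of them. They lie at chr2:2565012-2565111 (minus strand) in AT2G06470, at chr2:3227593-3227692 (minus strand) in AT2G07660 and at chr2:4242329-4242428 (plus strand) in AT2G10780, and capitals mark the 22 bases with the most genome copies, 14.
AT2G06470, AT2G07660 and AT2G10780: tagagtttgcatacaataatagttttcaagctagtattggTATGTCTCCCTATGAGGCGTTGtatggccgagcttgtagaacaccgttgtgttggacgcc
AT2G12810, AT2G12830 and AT2G12840 lie one after the other and share 480 identical bases. The 100 bases shown lie on the plus strand at chr2:5258997-5259096, chr2:5265765-5265864 and chr2:5272488-5272587, and the 22 bases in capitals have 25 genome copies.
AT2G12810, AT2G12830 and AT2G12840: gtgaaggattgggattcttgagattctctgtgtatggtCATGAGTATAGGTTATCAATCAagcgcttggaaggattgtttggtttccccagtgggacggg
The sources used here do not say how the authors placed reads that match several loci. Reads from the shared stretches could thus have been counted at any of the 3 loci of a group or at other copies in the genome. The separate levels given for these loci rest on that placement. So do those of other members with repeated words, among them AT2G13390 with 96.1% and AT2G09187 with 59.5% of words repeated. The run of numbers left out did not take in every copy of mitochondrial DNA, since a pair of members lay almost wholly in sequence that the mitochondrial genome also holds: the transcribed pseudogene AT2G07811 with 94.0% of its words and the uncharacterized gene AT2G07599 with 99.1%. Both are kept in the counts and given apart in the sums.

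At the other end of the scale, AT2G06555 (chr2:2604148-2604927, minus strand), a protein-coding gene of unknown function, had 0.92% of its words repeated, so its reads have 1 likely source. It had the highest level per kilobase of all members, 75.5 RPM per kb in dcl4-2 on ABA. The next was its neighbour, the pseudogene AT2G06550 (chr2:2602742-2603484, minus strand), with 22.5 RPM per kb in the same group. The 2 loci are 663 bp apart. The first 90 coding bases of AT2G06555, at chr2:2604743-2604832 on the minus strand, are shown as an example of a member with a sequence of its own, and capitals mark the start codon.
AT2G06555 coding start: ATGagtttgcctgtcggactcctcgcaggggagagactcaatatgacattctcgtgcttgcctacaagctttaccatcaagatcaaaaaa

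Summed over the 74 loci, the 22-nt level was highest in dcl4-2 on ABA and lowest in dcl4-2 dcl2-1 on either medium. The 3 libraries A, B and C of dcl4-2 dcl2-1 on ABA had sums of 165, 158 and 221 RPM, and those of dcl4-2 dcl2-1 on MS had 107, 161 and 126 RPM. In dcl4-2 on ABA the sums were 909, 463 and 954 RPM, against 267, 215 and 261 RPM in dcl4-2 on MS. Every dcl4-2 ABA library was above every dcl4-2 MS library, and library B, 1 of the 2 deepest, had about the level of a Col-0 ABA library. In Col-0 on ABA the sums were 513, 455 and 639 RPM, against 324, 230 and 288 RPM in Col-0 on MS. As group means, dcl4-2 on ABA had 3.13 times the sum of dcl4-2 on MS, Col-0 on ABA 1.91 times that of Col-0 on MS, and dcl4-2 dcl2-1 on ABA 1.38 times that of dcl4-2 dcl2-1 on MS. The double mutant's sum was 0.234 times that of dcl4-2 on ABA and 0.531 times on MS, and relative to Col-0 it was 0.339 times on ABA and 0.468 times on MS.

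These sums depend on what the reads are counted against. In the same libraries the summed level of MIRNA loci ranged between 2127 and 14412 RPM and was higher on ABA in Col-0 and dcl4-2. With that sum made equal in all libraries, the members' mean sum was 414 RPM in dcl4-2 on ABA and 407 RPM in dcl4-2 on MS, and 362 RPM in Col-0 on ABA against 392.4 RPM in Col-0 on MS, where the direction turned. On that scale the double mutant stayed below both other genotypes, with 177 RPM on ABA and 165 RPM on MS. Whether the MIRNA loci or the rest of the library moved was not tested. In whole seedlings, fewer cells that make these RNAs and less RNA per cell cannot be told apart.

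**Figure D1:**
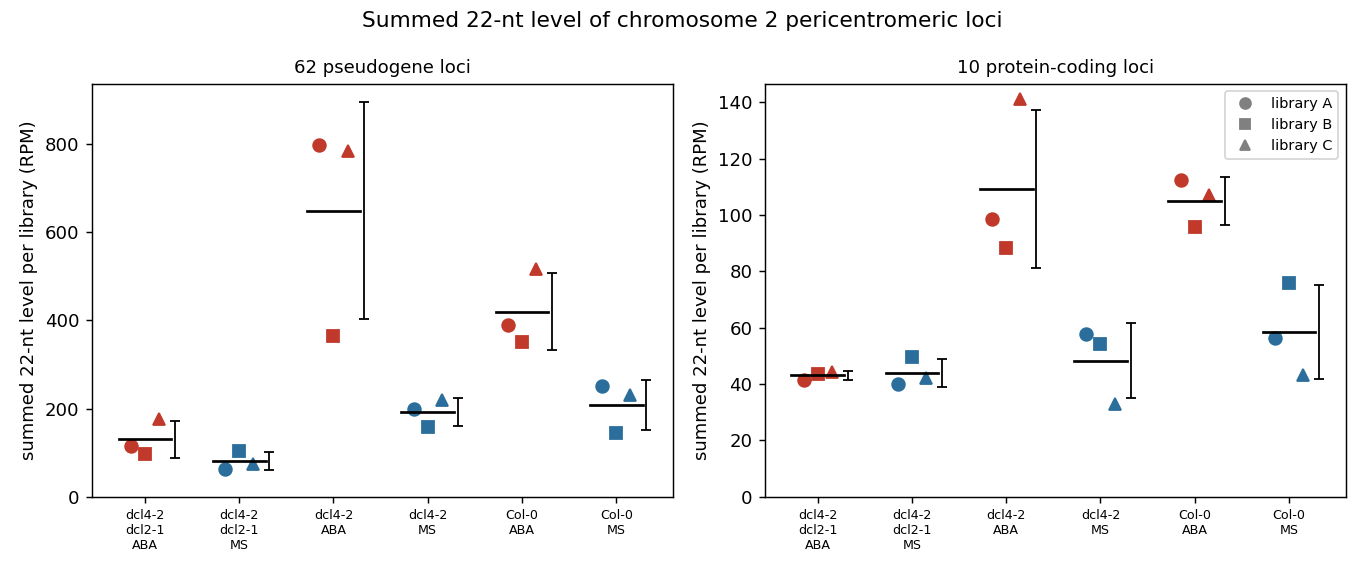
Summed 22-nt level (RPM, linear axis) of 62 pseudogene loci (left) and 10 protein-coding loci (right) in each library, without the 2 mitochondrial copies; red points are ABA and blue points MS libraries, marker shapes the letters A to C, and lines with bars the mean ± SD of 3 libraries. The pseudogenes averaged 649.2 ± 246.3 RPM in dcl4-2 on ABA and 129.9 ± 41.6 RPM in dcl4-2 dcl2-1 on ABA; with the MIRNA sum made equal, the level of all 74 loci in Col-0 is not higher on ABA than on MS.

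Pseudogenes, which are most of the loci, carried most of the signal. The 62 of them without the mitochondrial copy summed to 649.2 ± 246.3 RPM in dcl4-2 on ABA and 192.5 ± 31.6 RPM in dcl4-2 on MS, and to 419.6 ± 87.2 RPM in Col-0 on ABA and 208.8 ± 57.1 RPM in Col-0 on MS (SD, n = 3 each). In the double mutant they summed to 129.9 ± 41.6 RPM on ABA and 80.4 ± 20.9 RPM on MS. The 10 protein-coding genes summed to 109.4 ± 28.04 RPM in dcl4-2 on ABA, against 48.3 ± 13.3 RPM in dcl4-2 on MS, and to 105.0 ± 8.5 RPM in Col-0 on ABA, against 58.4 ± 16.6 RPM in Col-0 on MS. The double mutant had 43.1 ± 1.5 RPM over the same 10 genes on ABA and 43.9 ± 4.9 RPM when grown on MS, which is below every Col-0 and dcl4-2 ABA library. The 2 mitochondrial copies together stayed between 6.8 and 16.6 RPM as group means.

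By group of highest mean, 51 of the 74 loci peaked in dcl4-2 on ABA, 16 in Col-0 on ABA, 4 in dcl4-2 dcl2-1 on MS, 2 in dcl4-2 on MS, 1 in Col-0 on MS and 0 in dcl4-2 dcl2-1 on ABA. The highest mean also chose the loci, so these counts are a description. Peaks were not counted over the 1076 loci of the whole table at this level, so no trait particular to the 74 is read from them. The loci are mostly low: 23 reached a mean of 10 RPM, 8 reached 20 RPM, and 1 had a read in all 18 libraries. Just inside the threshold were AT2G12920 with 5.01 RPM and AT2G12370 with 5.02 RPM, both in dcl4-2 on ABA, and AT2G14640 with 5.04 RPM in dcl4-2 on MS. Just outside were AT2G13930 with 4.9996 RPM in dcl4-2 on MS, AT2G11840 with 4.99 RPM in dcl4-2 on ABA and AT2G06965 with 4.97 RPM in Col-0 on ABA.

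**Figure D2:**
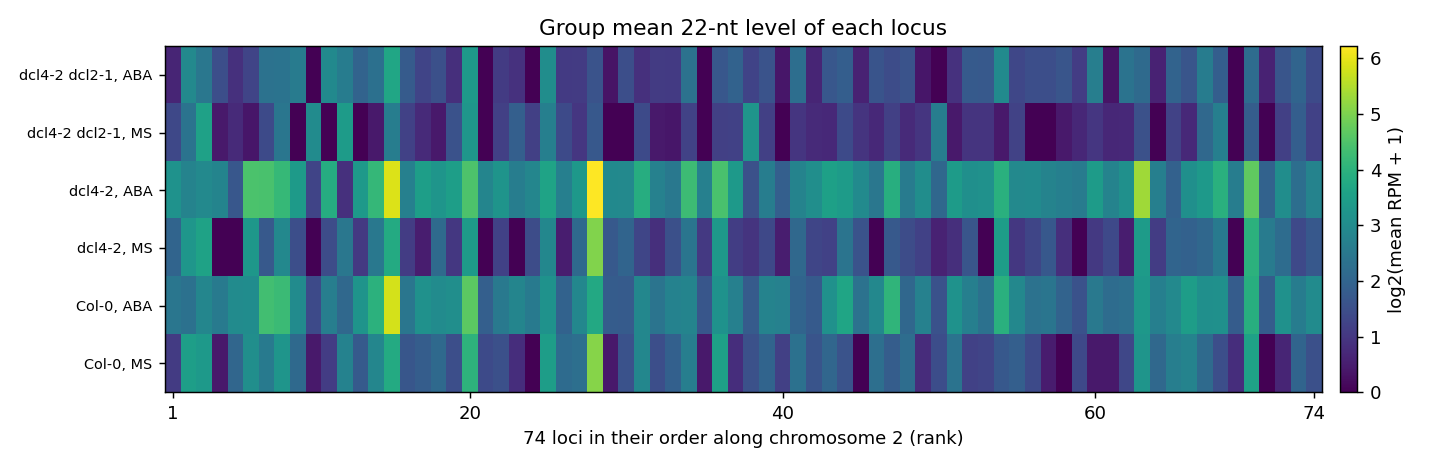
Group mean 22-nt level, as log2(mean RPM + 1) in colour, of the 74 loci in their order along chromosome 2 (horizontal rank) in the 6 groups (rows). The dcl4-2 ABA row is the brightest for 51 of the 74 loci, and single bright columns mark AT2G06555, AT2G09187 and AT2G13390. Peaks of loci outside the 74 were not counted.

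The locus with the most reads, AT2G09187, had the smallest adjusted p of all members, in the comparison of dcl4-2 dcl2-1 with dcl4-2 on ABA. In libraries A, B and C it had 1.56, 4.53 and 0 RPM in dcl4-2 dcl2-1 on ABA, against 167, 17.4 and 36.8 RPM in dcl4-2 on ABA. On MS it had 1.83, 5.05 and 0 RPM in dcl4-2 dcl2-1, against 34.9, 24.1 and 37.0 RPM in dcl4-2 and 37.8, 8.06 and 53.4 RPM in Col-0. The double mutant's libraries were below all others on both media, and the dcl4-2 ABA mean of 73.7 RPM rested on library A. The zeros of the double mutant stand in its shallowest libraries, of 0.0953 M reads on MS and 0.181 M reads on ABA, where 3 reads make 31.5 and 16.6 RPM. In the fit of all 18 libraries, AT2G09187 fell by 4.33 ± 0.83 (SE) on the log2(RPM + 1) scale in dcl4-2 dcl2-1 relative to dcl4-2 on ABA (limma, adjusted p = 0.000231), and it fell by 3.655 ± 0.83 on MS (limma, adjusted p = 0.00834). Relative to Col-0 on MS it fell by 3.38 ± 0.83 (limma, adjusted p = 0.0129). Relative to MS, ABA gave no called change in Col-0, where the ABA libraries had 11.9, 12.02 and 13.7 RPM (limma, adjusted p = 0.574), nor in dcl4-2 (limma, adjusted p = 0.710). Leaving out any 1 library kept the call relative to dcl4-2 on ABA, but it was lost with equal MIRNA sums (limma, adjusted p = 0.0558) and with only the 6 libraries compared in the fit (limma, adjusted p = 0.0935). Relative to dcl4-2 on MS the call was lost without the double mutant's library C (limma, adjusted p = 0.0892), and relative to Col-0 on MS it was lost without that library (limma, adjusted p = 0.112), without Col-0 library A (limma, adjusted p = 0.0991) or without Col-0 library C (limma, adjusted p = 0.176).

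AT2G13390 (chr2:5566998-5575786, plus strand), a pseudogene with 96.1% of its words repeated, came next among the pseudogenes. It had 4.69, 0 and 5.53 RPM in dcl4-2 dcl2-1 on ABA, against 56.1, 24.3 and 38.7 RPM in dcl4-2 on ABA, and the groups did not overlap. On MS it had 15.6, 7.52 and 5.84 RPM in dcl4-2, and in Col-0 it had 8.67, 6.01 and 12.4 RPM on ABA and 12.3, 4.60 and 8.61 RPM on MS. Relative to dcl4-2 on ABA it fell by 3.53 ± 0.82 in dcl4-2 dcl2-1 (limma, adjusted p = 0.00439), while the log2 difference of 1.96 for ABA over MS in dcl4-2 did not pass (limma, adjusted p = 0.116). The call was lost without the double mutant's ABA library B, which had no read (limma, adjusted p = 0.077), with equal MIRNA sums (limma, adjusted p = 0.274), with only the 6 libraries compared (limma, adjusted p = 0.0995) and with no filter on low values (limma, adjusted p = 0.0534).

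AT2G06555, second in level, had its highest values on ABA in Col-0 and dcl4-2 but was called by limma in no comparison. It had 10.2, 14.5 and 11.1 RPM in dcl4-2 dcl2-1 on ABA and 5.48, 10.09 and 0 RPM in dcl4-2 dcl2-1 on MS. In dcl4-2 it had 59.3, 51.6 and 65.8 RPM on ABA, against 9.63, 12.03 and 17.5 RPM on MS. In Col-0 it had 58.4, 41.0 and 68.5 RPM on ABA, against 19.4, 12.7 and 6.89 RPM on MS. The ABA libraries of Col-0 and dcl4-2 stood above all other libraries. The log2 differences of ABA over MS were 2.12 in dcl4-2 (limma, adjusted p = 0.0747) and 2.10 in Col-0 (limma, adjusted p = 0.184), and that of dcl4-2 dcl2-1 over dcl4-2 on ABA was -2.22 (limma, adjusted p = 0.0644). In the authors' deposited table the same locus was called in 3 comparisons, with a log2 fold change of 2.198 for ABA in dcl4-2 (adjusted p = 0.000461), 2.05 for ABA in Col-0 (adjusted p = 0.000738) and -2.27 for dcl4-2 dcl2-1 over dcl4-2 on ABA (adjusted p = 0.00025). Its neighbour AT2G06550 had 6.25, 5.44 and 0 RPM in dcl4-2 dcl2-1 on ABA, 16.9, 11.9 and 21.3 RPM in dcl4-2 on ABA and 19.2, 13.1 and 13.1 RPM in Col-0 on ABA, and was not called either (dcl4-2 dcl2-1 over dcl4-2 on ABA, limma, adjusted p = 0.0726).

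Other members among the 12 most abundant varied in the same direction with smaller or less even differences. The pseudogene AT2G06400 had 7.04, 5.44 and 0 RPM in dcl4-2 dcl2-1 on ABA, against 13.5, 8.28 and 29.0 RPM in dcl4-2 on ABA, and 21.5, 13.7 and 18.9 RPM in Col-0 on ABA. The pseudogene AT2G10310 had 3.13, 3.63 and 5.53 RPM in dcl4-2 dcl2-1 on ABA, against 31.1, 6.29 and 17.4 RPM in dcl4-2 on ABA. In both loci the groups did not overlap, and neither was called (limma, adjusted p = 0.103 and 0.176). The pseudogene AT2G07455 had 7.82, 3.63 and 16.6 RPM in dcl4-2 dcl2-1 on ABA, against 20.4, 16.3 and 27.1 RPM in dcl4-2 on ABA, so the groups overlapped, and its 21.0 RPM in library C of the double mutant on MS came from the shallowest library. Lower in level, the transcribed pseudogene AT2G11930 had 1.56, 0 and 0 RPM in dcl4-2 dcl2-1 on ABA, against 3.63, 1.497 and 15.5 RPM in dcl4-2 on ABA, and it had no read in Col-0 on MS.

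**Figure D3:**
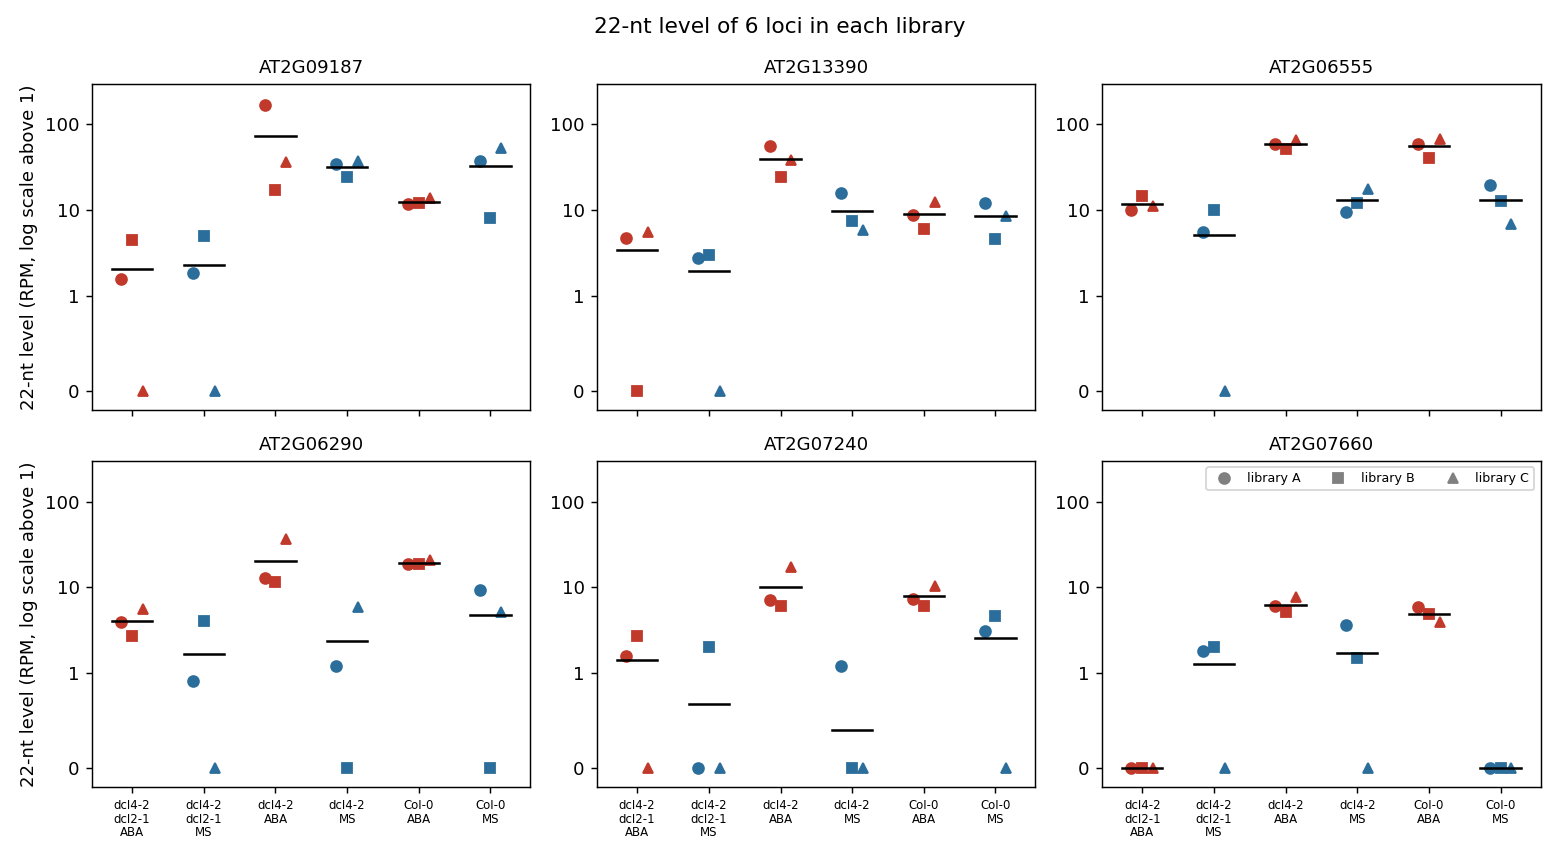
22-nt level (RPM, logarithmic axis above 1 and linear below it) of 6 loci in each of the 18 libraries; red points are ABA and blue points MS libraries, marker shapes the letters A to C, and lines the means of 3 libraries. AT2G09187 and AT2G13390 are low in dcl4-2 dcl2-1 on both media, while AT2G06555 has 41.0 RPM or more in the ABA libraries of dcl4-2 and Col-0 and 19.4 RPM or less elsewhere.

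ABA relative to MS in dcl4-2 was 1 of the 2 comparisons with many calls. By limma, 19 of the 74 loci rose and 0 fell at an adjusted p under 0.05, where the share called over all 5695 loci tested was 5.58% in either direction. The rule used these values, so the count over all 74 is read no further. Over the 50 members that reach 5 RPM in a group other than these 2, 13 rose and 0 fell, or 30 by the plain measure that all 3 ABA libraries lay above all 3 MS libraries. Among the 831 loci of the whole table that reach 5 RPM in such a group, 12.6% were called higher and 38.7% had all ABA libraries above. Their median log2 difference was 1.02, against 1.44 in the 50 members and 0.51 in all loci tested. Over all 74 members the median was 1.59, or 1.41 with the 9 loci that had 0 reads in 1 of the groups set at their bound.

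Among the loci that rose on ABA in dcl4-2, AT2G07240 (chr2:3007102-3012333), annotated as a cysteine-type peptidase, was the only protein-coding one. It had 7.02, 5.99 and 17.4 RPM in dcl4-2 on ABA, against 1.204, 0 and 0 RPM in dcl4-2 on MS, a log2 difference of 2.96 ± 0.74 (limma, adjusted p = 0.0125). The pseudogene AT2G06290 (chr2:2475752-2484523), which holds a direct repeat of 1540 bp at 95.9% identity, had 13.0, 11.7 and 36.8 RPM on ABA, against 1.204, 0 and 5.84 RPM on MS, a log2 difference of 2.93 ± 0.82 (limma, adjusted p = 0.0273). In both loci library C, the shallow one of dcl4-2 on ABA, was highest. AT2G07490 (chr2:3120079-3121379), a pseudogene, had 6.63, 5.29 and 3.87 RPM on ABA and no read in the MS libraries, which makes it at least 3.53-fold higher on ABA when 3 reads over the MS group are taken as the limit (limma, adjusted p = 0.0224). AT2G12330, a pseudogene of 5281 bp, had 10.2, 8.38 and 23.2 RPM on ABA, against 1.204, 0 and 5.84 RPM on MS (limma, adjusted p = 0.0474). The more abundant pseudogene AT2G14180 had 48.8, 8.38 and 17.4 RPM on ABA, against 10.8, 15.03 and 19.5 RPM on MS, so the groups overlapped and it was not called (limma, adjusted p = 0.817). The count of 19 rested on single libraries: it was 0 without the shallow dcl4-2 ABA library C, 4 without dcl4-2 ABA library A, 5 without dcl4-2 MS library B and 9 without dcl4-2 MS library C. It was also 0 with equal MIRNA sums, where the median of all loci was 0.02 and that of the members 0.62, and 0 when only the 6 libraries compared entered the fit. With equal MIRNA sums, 10 of all 5408 loci tested were called higher and 18 lower.

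The same hormone in Col-0 gave 1 call among the 74, AT2G07660, with 0.667% of all loci tested called. AT2G07660 (chr2:3227034-3231700), 1 of the 3 pseudogenes with the shared stretch shown above, had 5.94, 4.92 and 3.92 RPM in Col-0 on ABA and no read in Col-0 on MS (limma, adjusted p = 0.0429). With 3 reads over the pooled MS group as the limit, it was at least 3.98-fold higher on ABA. Of the 68 members that reach 5 RPM outside these groups, 30 had all ABA libraries above all MS libraries, against 31% of such loci in the whole table. Their median log2 difference was 1.06, against 0.66 for such loci. Over all loci the median was 0.27 as deposited and -0.11 with the MIRNA sum made equal, and over the 74 members, whose choice used these values, it was 1.05 and 0.28. With any 1 library of the 2 groups left out the count of calls was 0.

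In dcl4-2 dcl2-1, ABA relative to MS gave 0 calls among the 74 by limma, with 8 at an unadjusted p under 0.05, with 0 under voom weights and with 0.176% of all loci called. The members' median log2 difference was 0.43, or 0.25 with the 13 loci at 0 in 1 group set at their bound, against 0.04 for all loci. Over the 71 members that reach 5 RPM elsewhere, 6 had all ABA libraries above all MS libraries, against 8.07% of such loci in the whole table. The number of reads limits this comparison: the 74 loci together held 425 reads in the 3 ABA libraries and 289 in the 3 MS libraries of the double mutant, against 16648 in dcl4-2 on ABA.

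On ABA, dcl4-2 dcl2-1 relative to dcl4-2 was the other comparison with many calls. By limma, 18 of the 74 loci fell and 0 rose, with 6.29% of all loci called in either direction. Over the 50 members that reach 5 RPM in a group other than these 2, 11 fell and 0 rose, and 35 had all double mutant libraries below all dcl4-2 libraries. Among 809 such loci in the whole table, 17.9% were called lower and 39.4% had all double mutant libraries below. The median log2 difference of the 50 members was -1.84, against -1.06 for such loci and -0.51 for all loci tested. A positive difference was present in 2 of these 50 members and in 23.4% of all loci tested. The latter were not held to 5 RPM, so the shares are of unlike sets.

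Beside AT2G09187 and AT2G13390, the loci that fell included 4 more of the 12 most abundant members. The pseudogene AT2G06250 (chr2:2449509-2450772) had 1.56, 2.72 and 0 RPM in dcl4-2 dcl2-1 on ABA, against 43.2, 7.78 and 11.6 RPM in dcl4-2 on ABA (limma, adjusted p = 0.0173). AT2G10660 had 3.13, 3.63 and 0 RPM, against 39.5, 10.8 and 11.6 RPM (limma, adjusted p = 0.0281). AT2G12330 had 1.56, 3.63 and 0 RPM, against 10.2, 8.38 and 23.2 RPM (limma, adjusted p = 0.0353). AT2G14180 had 6.25, 4.53 and 0 RPM, against 48.8, 8.38 and 17.4 RPM (limma, adjusted p = 0.0454). In AT2G06250, AT2G10660 and AT2G14180, as in AT2G09187, library A of dcl4-2 on ABA was the highest, while in AT2G12330 it was library C. AT2G10180 (chr2:3866573-3872675), a pseudogene, had 1.56, 0.91 and 0 RPM in dcl4-2 dcl2-1 on ABA, against 25.01, 8.18 and 7.74 RPM in dcl4-2 on ABA, a log2 difference of -2.91 ± 0.79 (limma, adjusted p = 0.0171). AT2G07660 had no read in the 3 double mutant libraries on ABA, against 6.00, 5.09 and 7.74 RPM in dcl4-2 on ABA (limma, adjusted p = 0.00535). With 3 reads over the pooled double mutant group as the limit, it was at least 5.36-fold lower there. That limit takes 1 level in all 3 libraries, and in library C alone 3 reads make 16.6 RPM. AT2G07660 reached 5 RPM only in dcl4-2 on ABA, with 4.92 RPM in Col-0 on ABA. Its choice thus used the values compared, and its call is a description. The members that share its sequence did keep reads in dcl4-2 dcl2-1 on ABA, AT2G06470 with 0.78, 2.72 and 16.6 RPM and AT2G10780 with 3.13, 0 and 5.53 RPM. The count of 18 was 4 without dcl4-2 ABA library C, 5 without dcl4-2 ABA library A, and 10 and 9 without the double mutant's ABA libraries B and C. With equal MIRNA sums it was 0, with a median of -1.13 in the members and -0.13 in all loci, and it was 0 when only the 6 libraries compared entered the fit. Of all 5408 loci tested with equal MIRNA sums, 3 were called higher and 15 lower.

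The remaining comparisons gave few calls. On MS, dcl4-2 dcl2-1 relative to dcl4-2 gave 1 call, AT2G09187, with 0.615% of all loci called and a median difference of the 74 loci of -0.38. Relative to Col-0, dcl4-2 dcl2-1 gave 1 call on MS, again AT2G09187, with 1.21% of all loci called. On ABA, dcl4-2 dcl2-1 relative to Col-0 gave 1 call, AT2G07660, with 0.615% of all loci called. By the same limit of 3 reads over the pooled group, it was at least 4.21-fold lower in the double mutant (limma, adjusted p = 0.0441). That call held in 1 of 13 alternatives and was lost without any 1 library of the 2 groups (limma, adjusted p between 0.0974 and 0.178) and with equal MIRNA sums (limma, adjusted p = 0.813). There 38 of the 69 members that reach 5 RPM elsewhere had all double mutant libraries below all Col-0 libraries, against 37.5% of such loci in the whole table, and the median difference of the 74 loci was -1.54. The single mutant dcl4-2 relative to Col-0 gave 0 calls by limma on MS, with 8 loci at an unadjusted p under 0.05 and 0.299% of all loci called. On ABA it also gave 0 calls, with 3 loci at an unadjusted p under 0.05 and 0.228% of all loci called. The median differences were -0.34 on MS and 0.33 on ABA, against -0.13 and 0.08 for all loci. With 0 calls by the main test, weighting the recovered reads by their precision (voom) gave 2 calls on ABA and 0 on MS.

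**Figure D4:**
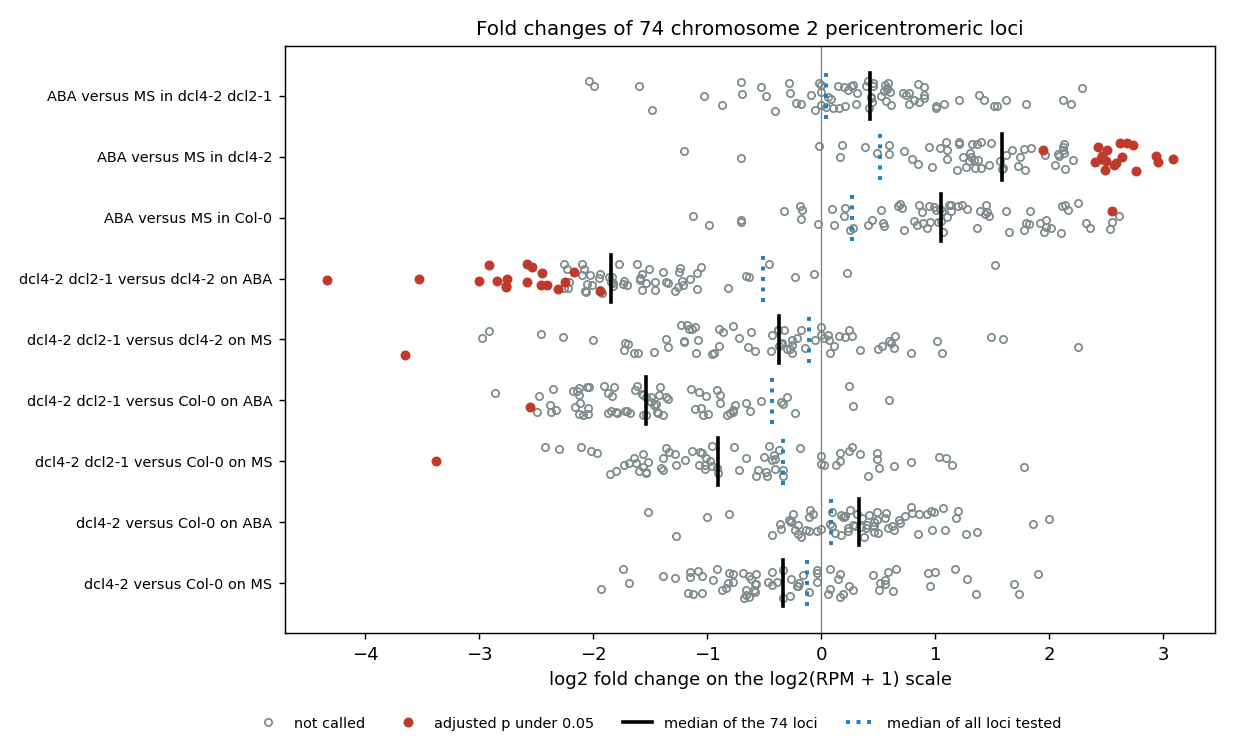
Log2 fold change on the log2(RPM + 1) scale of each of the 74 loci (points, jittered vertically) in the 9 comparisons; filled red points passed an adjusted p under 0.05, black lines are the median of the 74 loci and dotted blue lines that of all 5695 loci tested. The members' median is 1.59 for ABA in dcl4-2 and -1.84 for dcl4-2 dcl2-1 relative to dcl4-2 on ABA; with the MIRNA sum made equal these medians are 0.62 and -1.13 and none of the 74 loci passes in either comparison.

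Whether the ABA effect itself differed between genotypes was tested as an interaction. By limma, 0 of the 74 loci were called for dcl4-2 against Col-0, where 3 had an unadjusted p under 0.05, beside 0.263% of all loci called. The contrast of dcl4-2 dcl2-1 with dcl4-2 gave 0, and 20 loci had an unadjusted p under 0.05, beside 0.211% of all loci called. That of dcl4-2 dcl2-1 with Col-0 gave 0 as well, with 12 loci under an unadjusted p of 0.05 and 0.158% of all loci called. With voom weights the count was 0 in each of the 3 as well. The members' median differences were 0.55, -1.15 and -0.56, against 0.23, -0.39 and -0.15 for all loci. So no single locus was shown to differ between genotypes in its ABA effect. The numbers of calls for ABA in each genotype were not tested against each other and rested on single libraries. The reads behind them differed as well: on ABA the 74 loci held 16648 reads in dcl4-2, 2934 in Col-0 and 425 in dcl4-2 dcl2-1.

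The authors' deposited table holds 4 of these comparisons. For ABA in dcl4-2 the authors' deposited table called 8 of the 73 members with an adjusted p, all higher, where 8.14% of all loci with an adjusted p were called, and 6 of the 8 were also among the 19 called by limma. For dcl4-2 dcl2-1 relative to dcl4-2 on ABA the authors' deposited table called 14 of 74, all lower, where 8.88% of all loci were called, and 9 of the 14 were among the 18 called by limma. Of the 50 members that reach 5 RPM outside the compared groups, the authors' deposited table called 6 in the first of these comparisons and 13 in the other. The shares of 8.14% and 8.88% are over loci not held to that level. The authors' share among loci of that level was not counted, so both counts are a description. For ABA in dcl4-2 dcl2-1 the authors' deposited table called 0 of 74, with 0.0233% of all loci called. For ABA in Col-0 the authors' deposited table called 2 of 74, both higher, with 2.57% of all loci called, and neither was the 1 called by limma.

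Members were also split by how much of their sequence is repeated and by annotation, over all 74 loci and so as a description. Over all loci tested, the share called in either direction was 5.58% for ABA in dcl4-2. It was 6.29% for dcl4-2 dcl2-1 relative to dcl4-2 on ABA. Among loci that reach 5 RPM outside the compared groups, 12.6% were called higher in the first comparison and 17.9% lower in the other. The 37 members with over 50% of their words repeated gave 8 higher calls for ABA in dcl4-2, against 11 in the other 37, with a median of 1.59 in both. For dcl4-2 dcl2-1 relative to dcl4-2 on ABA each set gave 9 lower calls, with medians of -1.78 in the more repeated set and -1.94 in the other. In Col-0 the more repeated set summed to 217.8 ± 51.2 RPM on ABA and 135.4 ± 45.5 RPM on MS, and the less repeated set to 317.7 ± 50.2 RPM on ABA and 145.3 ± 20.4 RPM on MS (SD, n = 3 each). By annotation, 18 of the 62 pseudogenes were called higher on ABA in dcl4-2 and 17 lower in dcl4-2 dcl2-1 relative to dcl4-2 on ABA, with medians of 1.65 and -1.93. Of the 10 protein-coding genes 1 was called in each, AT2G07240 both times, with medians of 0.80 and -0.74. Its call for ABA in dcl4-2 held in 6 of 13 alternatives and that relative to dcl4-2 on ABA in 1 of 13. The difference between these classes was not tested.

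Among the protein-coding members, several known genes did not peak in dcl4-2 on ABA. GRP-3 (AT2G05520), a glycine-rich protein known to bind a cell wall-associated kinase, had 5.47, 8.16 and 0 RPM in dcl4-2 dcl2-1 on ABA, 10.95, 11.1 and 10.49 RPM in dcl4-2 dcl2-1 on MS, 3.79, 4.39 and 11.6 RPM in dcl4-2 on ABA, 16.8, 10.52 and 5.84 RPM in dcl4-2 on MS, 7.76, 9.84 and 1.31 RPM in Col-0 on ABA and 10.2, 12.7 and 5.17 RPM in Col-0 on MS. It was called in no comparison. GRP3S (AT2G05380), its shorter relative, averaged 6.56 RPM in dcl4-2 dcl2-1 on ABA, 4.15 RPM in dcl4-2 dcl2-1 on MS, 5.88 RPM in dcl4-2 on ABA, 8.62 RPM in dcl4-2 on MS, 4.01 RPM in Col-0 on ABA and 10.29 RPM in Col-0 on MS. PSBX (AT2G06520), a small subunit of photosystem II, averaged 5.11 RPM in dcl4-2 dcl2-1 on ABA, 9.59 RPM in dcl4-2 dcl2-1 on MS, 0.815 RPM in dcl4-2 on ABA, 4.51 RPM in dcl4-2 on MS, 3.27 RPM in Col-0 on ABA and 5.73 RPM in Col-0 on MS. Its highest mean rested on library C of dcl4-2 dcl2-1 on MS, the shallowest of all, with 21.0 RPM beside 2.74 and 5.05 RPM in libraries A and B. SUC8 (AT2G14670), annotated as a sucrose-proton symporter, averaged 5.11 RPM in Col-0 on ABA and 3.05 RPM in Col-0 on MS. The 2 protein-coding members annotated by a transposon name had unlike values: AT2G06420, named after En/Spm-like DNA transposons, averaged 9.46 RPM in dcl4-2 on ABA and 1.80 RPM in dcl4-2 on MS, and AT2G13450, named after the Ta11-like retrotransposons, averaged 2.85 RPM in dcl4-2 on ABA and 3.002 RPM in dcl4-2 on MS, with its highest means in Col-0, 6.61 RPM on ABA and 5.37 RPM on MS. AT2G07811, 1 of the mitochondrial copies, was not called either, with means of 7.22 RPM in dcl4-2 dcl2-1 on ABA, 5.48 RPM in dcl4-2 dcl2-1 on MS, 11.2 RPM in dcl4-2 on ABA, 6.40 RPM in dcl4-2 on MS, 7.99 RPM in Col-0 on ABA and 9.99 RPM in Col-0 on MS.

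Set beside other loci chosen at the same level of 5 RPM, the chromosome 2 loci had values close to those of 2 other pericentromeres. For ABA in dcl4-2 the median was 1.59 in the 74 loci, 1.73 in 103 loci around the centromere of chromosome 3, 1.61 in 102 tested loci around that of chromosome 5 and 1.09 in 88 tested loci on the rest of chromosome 2. For dcl4-2 dcl2-1 relative to dcl4-2 on ABA the medians were -1.84, -2.07, -1.74 and -1.02 in the same order. The number of lower calls there was 18 of 74, 43 of 103, 27 of 102 and 14 of 88. Over all 5695 loci tested, 6.29% were called in either direction in that comparison. Among the 809 loci that reach 5 RPM outside the compared groups, 17.9% were called lower. The choice of the chromosome sets used the values compared, so their counts are a description. The chromosome sets were not tested against each other.

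The genes of the silencing pathways themselves made few 22-nt reads, which says nothing about their messenger RNAs. Of 23 genes of RNA-directed DNA methylation, 21 stayed under 1 RPM in every group, 2 were tested and 0 were called in any of 9 comparisons, with IDN2 highest at 2.13 RPM in Col-0 on ABA. Of 13 genes that maintain transposon silencing, 11 stayed under 1 RPM and 1 was tested, with 2 calls over the 9 comparisons and with MET1, the maintenance DNA methyltransferase, highest at 3.02 RPM in Col-0 on MS. Of 15 genes of post-transcriptional silencing, 12 stayed under 1 RPM and 3 were tested, with 4 calls in all and with AGO2, an Argonaute that loads small RNAs, highest at 17.6 RPM in Col-0 on MS.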

How the data were processed

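Small RNA libraries of 18 seedling samples in 6 groups were deposited as 1 table of 22-nt reads on 32420 loci. The authors aligned reads with Bowtie 1.2.2 and used SAMtools 1.9, TAIR 10 and DESeq2, per the submitters' processing notes. The deposited columns carry the heading TPM; their values show no division by gene length and are RPM averaged by the authors over 3 libraries. The authors' log2 fold changes and p-values of 4 comparisons stand in the same table, per the file headers. Whole reads per library were solved from the group means; for all 74 members a single solution existed in every group, and simulated means gave back the true reads. RPM per library was tested as log2(RPM + 1) with limma 3.58.1 (R 4.3.3, trend, two-sided, all 18 libraries sharing the spread), for the 5695 loci that reached 1 RPM in 3 or more libraries, with Benjamini-Hochberg adjustment over all of them and calls at adjusted p under 0.05; fold changes on this scale understate those of low loci. All 74 members passed the filter. The fit left out 2 loci whose reads were not solved in 1 group. Folds against a group at 0 are bounded by 3 reads over the pooled reads of the group. This takes 1 level in its 3 libraries and covers counting error only, not the spread between libraries. Loci were matched by ID to the RefSeq TAIR10.1 annotation. Repeated words were counted over 22 bases on both strands, and repeats within loci were found with BLASTN 2.17.0. Members, lists and tests were chosen with earlier results of these data known. Named loci are the 12 most abundant, up to 3 called per comparison and direction that do not overlap and reach 5 RPM elsewhere, the 3 on each side of the threshold and the 2 most abundant per annotation class; members of the shared-sequence groups were named for their sequence, and protein-coding members with a known or transposon name after their values were seen. Alternatives were other pseudocounts, no filter, equal MIRNA sums, only the compared groups, voom weights, leaving out libraries, and, chosen after seeing the data, leaving out the 3 shallowest libraries.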

Additional observations from a re-analysis of the deposited data

How the results depend on the processing

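Calls of named loci in the main fit and differences of AT2G06555 were followed through 13 alternatives each, and none changed direction. The calls had passed a test on the same reads, so a reversal was unlikely from the start. Other single-locus values were not followed. The calls did depend on settings, and the cause was not tested. Calls over the whole table moved as well. For ABA in dcl4-2 they were 302 higher and 16 lower, 10 and 18 with equal MIRNA sums, and 57 and 3 without the 3 shallowest libraries. For dcl4-2 dcl2-1 relative to dcl4-2 on ABA they were 6 higher and 352 lower, then 3 and 15, then 2 and 58. Whole-table calls under the other alternatives are not given. Main counts of members called were 19 for ABA in dcl4-2 and 18 for dcl4-2 dcl2-1 relative to dcl4-2 on ABA. For ABA in dcl4-2 the count was 1 with no filter, 0 with equal MIRNA sums, 0 with only the compared groups, 12 with voom, 4 without the 3 shallowest libraries, and 0 to 15 when 1 library was left out (0 without dcl4-2 ABA library C, 4 without library A, 5 without dcl4-2 MS library B and 9 without dcl4-2 MS library C). For dcl4-2 dcl2-1 relative to dcl4-2 on ABA it was 4 with no filter, 0 with equal MIRNA sums, 0 with only the compared groups, 3 without the 3 shallowest libraries, and 4 to 18 with 1 library left out (5 and 4 without dcl4-2 ABA libraries A and C, 10 and 9 without dcl4-2 dcl2-1 ABA libraries B and C). For ABA in Col-0, with 1 call, the count was 0 at pseudocount 0.5, 3 at pseudocount 5, 0 with no filter, with equal MIRNA sums or with only the compared groups, 2 with voom, 4 without the 3 shallowest libraries and 0 in each leave-one-out fit. With 1 call for dcl4-2 dcl2-1 relative to dcl4-2 on MS, alternatives gave 2 at pseudocount 0.5, 0 at pseudocount 5, 0 with no filter, 3 with equal MIRNA sums, 0 with only the compared groups, 0 without the 3 shallowest libraries and 0 to 2 with 1 library left out. With 1 call for dcl4-2 dcl2-1 relative to Col-0 on MS, the count was 0 at pseudocount 5, with no filter, with only the compared groups and without the 3 shallowest libraries, and 0 to 2 with 1 library left out. For dcl4-2 dcl2-1 relative to Col-0 on ABA, with 1 call, it was 3 at pseudocount 5 and 0 at pseudocount 0.5, with no filter, with equal MIRNA sums, with only the compared groups, without the 3 shallowest libraries and in each leave-one-out fit. For dcl4-2 relative to Col-0 on ABA voom gave 2 calls. Leaving out 1 library gave 0 to 1 calls for ABA in dcl4-2 dcl2-1 and for the interactions of dcl4-2 dcl2-1 with dcl4-2 and with Col-0.

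AT2G09187 stayed called for dcl4-2 dcl2-1 relative to dcl4-2 on ABA in 11 of 13 alternatives (limma, adjusted p between 3.29e-07 and 0.0935), AT2G07660 in 10 (0.00399 to 0.421) and AT2G13390 in 9 (9.61e-07 to 0.274). The choice of AT2G07660 rested on its level in dcl4-2 on ABA, so its count is a description. For ABA in dcl4-2, AT2G07240 and AT2G07490 stayed called in 6 and AT2G06290 in 5. AT2G07660 for ABA in Col-0 stayed called in 2 and relative to Col-0 on ABA in 1. Equal MIRNA sums moved the median of all loci by -0.49 for ABA in dcl4-2, by -0.38 for ABA in Col-0 and by 0.39 for dcl4-2 dcl2-1 relative to dcl4-2 on ABA.

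Summed levels with the threshold at 10 RPM, then at 2 RPM, were 94.4 and 354 RPM in dcl4-2 dcl2-1 on ABA, 64.0 and 243 on MS, 467 and 1185 in dcl4-2 on ABA, 168 and 407 on MS, 292 and 906 in Col-0 on ABA and 177 and 448 on MS. With equal MIRNA sums they were 165 in dcl4-2 dcl2-1 on MS, 414 in dcl4-2 on ABA, 407 on MS, 362 in Col-0 on ABA and 392.4 on MS. Without AT2G09187 the sum in dcl4-2 on MS was 216.

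Depth limits every group: 3 reads over the group make 1.17 RPM in dcl4-2 dcl2-1 on ABA, 1.38 on MS, 0.129 in dcl4-2 on ABA, 1.49 on MS, 0.540 in Col-0 on ABA and 1.24 on MS. The low value of dcl4-2 on ABA comes from its deep libraries A and B. Its library C is about as shallow as library C of dcl4-2 on MS, and group means count it as much as the deep ones. No paired analysis was possible because the libraries solved from the group means carry no replicate number.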
